A study of Mus musculus with 4 samples.

Results

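TRBV5 and TRBV19 are V genes of the T cell receptor beta chain, and every beta chain that carried either gene was taken from 2 tumour libraries. The genes were chosen by clone size, counted over cells with both an alpha and a beta chain: 2 of the 3 largest T cell clones of the p53 knockout (KO) tumour used them. Of 677 cells with a beta chain, 113 carried one of these genes, 34 of 326 cells of the WT library and 79 of 351 cells of the p53 KO library. The libraries came from whole MC38 tumours, a mouse colon carcinoma line grown in C57BL/6J mice. The tumour cells were either WT or carried a CRISPR-Cas9 knockout of p53, a tumour suppressor. Both groups received anti-PD-1, an antibody against an inhibitory receptor of T cells, and no untreated group was analysed here. The knockout lies in the tumour line, and the T cells are those of the host mice, so receptor chains cannot check it. The sources used here do not give the number or age of the mice, or whether the knockout line is 1 clone. Each genotype had 1 receptor library, made by droplet capture with a unique molecular identifier (UMI) for each RNA molecule. Differences between the tumours therefore rest on single libraries and were not tested.

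The beta chain is assembled in each developing T cell from a V, a D and a J segment, with bases trimmed and added at the joints. The V gene fixes CDR1 and CDR2, loops that mostly face the presenting MHC molecule, while the joint forms CDR3, the loop that lies over the peptide. Daughter cells inherit the joint, so its nucleotide sequence marks a clone. The alpha chain is built later, without a D segment, and both chains together form the receptor.

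On mm10 (GRCm38.p6, RefSeq), TRBV5 lies on chromosome 6 from 41062359 to 41062803, and TRBV19 from 41178589 to 41179048. The J segments follow on the same chromosome, with TRBJ1-4 at 41534811 to 41534861, TRBJ2-1 at 41542754 to 41542803 and TRBJ2-7 at 41543810 to 41543856. Every contig of TRBV5 had the same V region sequence in both libraries, and so did every contig of TRBV19. The encoded V regions of TRBV5 and TRBV19 were identical at 22 of 90 aligned positions (24.4%). Their CDR1 and CDR2, shown because they are what all members of a gene share, read as follows, 5′ to 3′.
TRBV5 CDR1: ctgggacataatgct
TRBV5 CDR2: tacaatcttaaacagttg
TRBV19 CDR1: ttcaatcatgataca
TRBV19 CDR2: tcaataactgaaaacgat
Both loops differ between the genes in sequence but not in length.

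The CDR3 of the largest chain of each gene is shown next, because the clone sizes turn on these chains. TRBV5 had no chain in more than 1 WT cell, so none is shown for it there. Capitals mark the bases between the V end and the J end, as far as those ends are shared among the deposited chains. They hold the D segment and the added bases, and can also hold V or J bases past the shared ends. Germline segments were not used to mark them.
TRBV19 with TRBJ2-1, p53 KO, 31 cells: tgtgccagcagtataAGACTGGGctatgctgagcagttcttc
TRBV5 with TRBJ2-1, p53 KO, 11 cells: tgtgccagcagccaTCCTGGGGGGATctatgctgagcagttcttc
TRBV19 with TRBJ2-7, WT, 5 cells: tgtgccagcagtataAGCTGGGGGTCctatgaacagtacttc
The largest TRBV19 chain had 8 bases in capitals, within the range of 3 to 15 over the 14 TRBV19 chains of its library (median 11). The largest TRBV5 chain had 12, where the range was 5 to 13 over 13 chains (median 10). No D gene was called for any of these chains.

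TRBV19 was the most frequent V gene of the p53 KO library by cells and stood lower in the WT library. It was found in 47 of 351 p53 KO cells (13.4%, exact 95% interval 10.01 to 17.4) and in 20 of the 326 WT cells (6.13%, 3.79 to 9.32). Its rank among 22 V gene names was 1 in p53 KO and 6 in WT. TRBV5 was found in 33 p53 KO cells (9.40%, 6.56 to 12.9) and 14 WT cells (4.29%, 2.37 to 7.10), with ranks of 3 and 7. TRBV1, the gene of the other large p53 KO clone, stood between them in p53 KO at 46 cells (13.1%, 9.76 to 17.1). Its interval overlaps both. Intervals here and in what follows are exact binomial (Clopper-Pearson) and cover counting error only. They treat the cells of a clone as independent.

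The ratio of the p53 KO share of cells to the WT share was 2.19 for TRBV5 and 2.18 for TRBV19. Of 20 V genes in 10 or more clonotypes, 5 were at least 1.5-fold higher in p53 KO by cells (25.0%). Because the genes were chosen for large p53 KO clones, nothing is read from these ratios. Without the cells of its largest beta chain, TRBV19 was in 16 of 320 p53 KO cells (5.0%, 2.88 to 7.99) and in 15 of the 321 WT cells (4.67%, 2.64 to 7.59). TRBV5 was then in 22 of 340 p53 KO cells (6.47%, 4.10 to 9.63) and in 13 of the 325 WT cells (4.0%, 2.15 to 6.74). Both pairs of intervals overlap. The TRBV19 shares were then close, and for TRBV5 the p53 KO share was still the higher value.

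**Figure D1:**
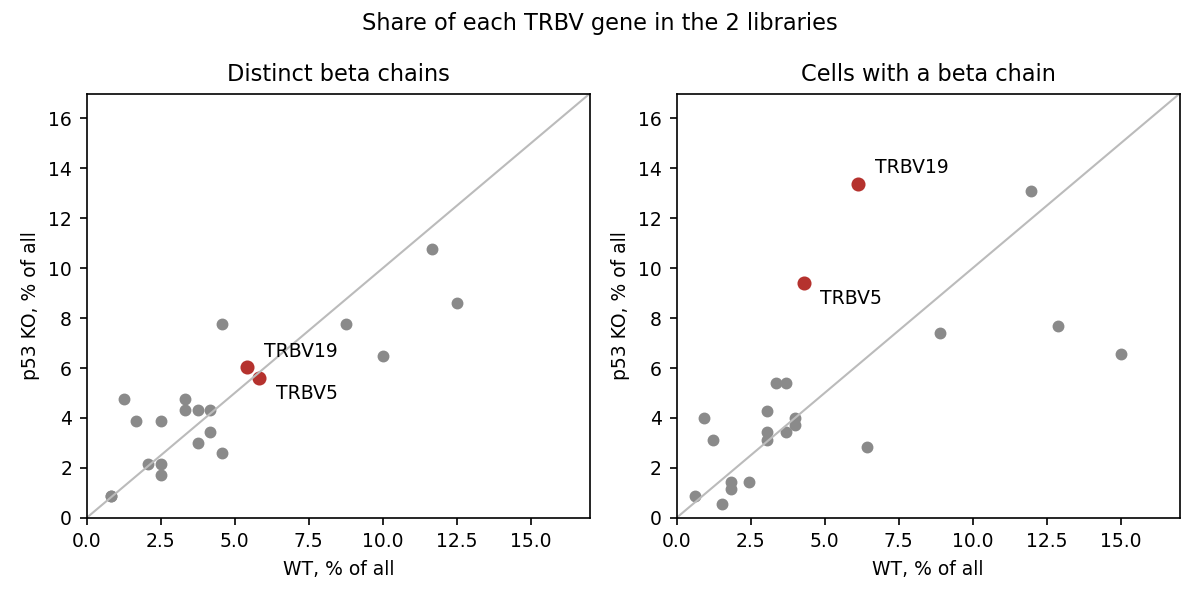
Share of each of 22 TRBV genes in the WT library (x axis, %) and the p53 KO library (y axis, %), over distinct beta chains (left) and over cells with a beta chain (right), with the line of equal shares; each point is 1 gene, and red points are TRBV5 and TRBV19. Both red points lie near the line by chains, at 5.83% and 5.60% for TRBV5 and 5.42% and 6.03% for TRBV19 (WT, then p53 KO), and above it by cells, at 4.29% and 9.40% for TRBV5 and 6.13% and 13.4% for TRBV19.

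Over distinct beta chains, told apart by V gene, J gene and CDR3 nucleotides, both genes held like shares of the libraries. TRBV5 gave 14 of 240 WT chains (5.83%, 3.23 to 9.59) and 13 of the 232 p53 KO chains (5.60%, 3.02 to 9.39). TRBV19 gave 13 WT chains (5.42%, 2.92 to 9.08) and 14 p53 KO chains (6.03%, 3.34 to 9.92). The deposited clonotype identifiers, which also use the alpha chain, gave more in p53 KO, with 15 clonotypes of TRBV5 and 19 of TRBV19 among 230. In WT they gave 14 and 13 among 240. The ratio of p53 KO to WT shares was 1.12 for TRBV5 and 1.53 for TRBV19 by identifiers, and 0.961 and 1.11 by chains. By identifiers, 8 of 20 V genes differed by 1.5-fold or more (40.0%), and by chains 6 of 20 did (30.0%). TRBV19 passed that size by identifiers and not by chains. The V genes nearest to TRBV5 in their shares of clonotypes, over the 2 libraries, were TRBV19 (summed difference of 2.16 percentage points), TRBV12-2 (2.55) and TRBV13-3 (3.37). Those nearest to TRBV19 were TRBV12-2 (1.27), TRBV5 (2.16) and TRBV13-1 (4.20).

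Several TRBV5 chains were in more than 1 cell in p53 KO, and none was in WT. All 14 TRBV5 chains of WT were found in 1 cell each. In p53 KO, 5 chains were found in 11, 5, 3, 3 and 3 cells, and the other 8 in 1 cell. Without the largest, chains of 2 or more cells held 14 of 22 p53 KO cells. The mean was then 1.83 cells per TRBV5 chain in p53 KO and 1.00 in WT. Among chains of all V genes other than TRBV5 and TRBV19, 35 of 205 were in 2 or more cells in p53 KO (17.1%), and in WT 48 of 213 were (22.5%).

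TRBV19 had 1 dominant chain in p53 KO and few others above 1 cell. Its p53 KO chains were found in 31, 3 and 2 cells, and 11 of 14 in 1 cell. Its WT chains were found in 5, 2, 2 and 2 cells, and 9 of 13 in 1 cell. Without the largest chain the mean was 1.23 cells per chain in p53 KO and 1.25 in WT. The largest chain held 66.0% of TRBV19 cells in p53 KO (50.7 to 79.1) and 25.0% in WT (8.66 to 49.1). Because TRBV19 was chosen for its large p53 KO clone, nothing is read from this difference.

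**Figure D2:**
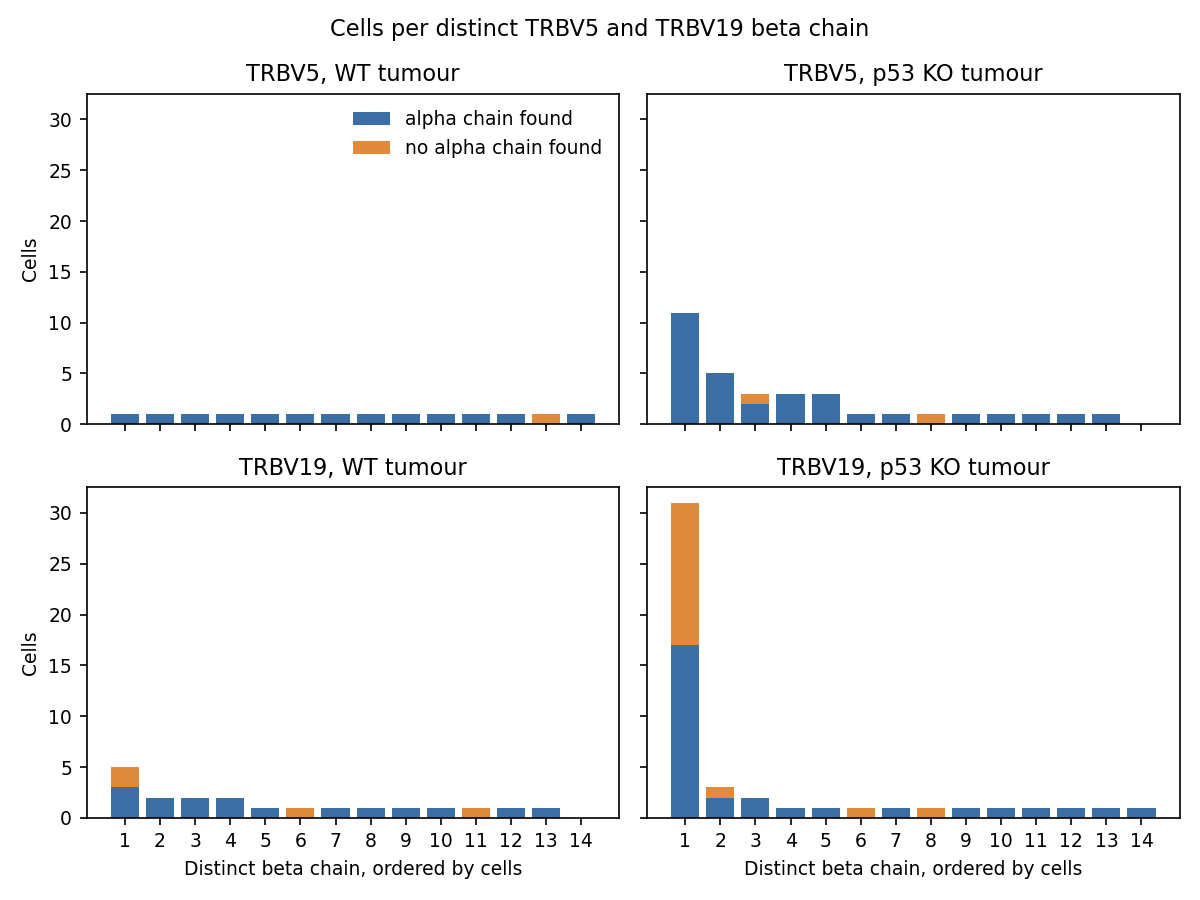
Cells (y axis) of each distinct beta chain, ordered by cells (x axis), for TRBV5 (top) and TRBV19 (bottom) in the WT (left) and p53 KO tumour (right), with cells that had an alpha chain in blue and cells without in orange. The TRBV19 chain of 31 p53 KO cells lacked an alpha chain in 14, whereas every cell of the TRBV5 chain of 11 p53 KO cells had one.

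The largest TRBV19 chain was split over 3 deposited identifiers, of 16, 14 and 1 cells. The 16 cells carried TRAV7-6 joined to TRAJ43. The 14 cells had no alpha contig. The single cell carried TRAV10N joined to TRAJ17, at 8 UMIs, and no TRAV7-6 chain. The TRAV7-6 chain was found in 18 cells, 2 of them without a beta chain, and with no other beta chain. Over cells with both chains, the count that chose the genes, the TRAV7-6 identifier had 16 cells, between a TRBV1 clone of 28 and a TRBV5 clone of 10, and the next clone had 6. Over all cells with the beta chain, the TRBV19 chain had 31, the TRBV1 chain 30 and the TRBV5 chain 11.

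The beta chain of the largest TRBV19 clone had like UMI counts in cells without and with an alpha chain. It had 2 to 18 UMIs in the 14 cells without (median 9) and 4 to 26 in the 17 cells with (median 8). The alpha chain of these 17 cells, TRAV7-6 in 16 and TRAV10N in 1, had 1 to 13 UMIs (median 2). It had a single UMI in 8 of 17 cells. Over all alpha contigs of the library the median was 4 UMIs, and 42 of 336 had 1 UMI (12.5%). In the largest TRBV5 clone the alpha chain had 2 to 15 UMIs (median 5) in 11 cells, and none had a single UMI. In the largest TRBV1 clone it had 1 to 22 UMIs (median 7) in 28 cells, with a single UMI in 3. The TRBV19 clone thus had the fewest alpha UMIs of these 3 clones by median, at a beta count near that of TRBV1 (median 8 over 30 cells).

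The share of cells without an alpha chain was 14 of 31 for the largest TRBV19 chain (45.2%, 27.3 to 64.0). It was 0 of 11 for the largest TRBV5 chain, where the interval ends at 28.5%, and 2 of 30 for the largest TRBV1 chain (6.67%, 0.818 to 22.1). The intervals of the TRBV19 and TRBV1 chains lie apart. These clones were chosen by their cells with both chains, which bears on these shares, so nothing is read from this. Over the whole of TRBV19, 17 of 47 p53 KO cells (36.2%, 22.7 to 51.5) and 4 of the 20 WT cells (20.0%, 5.73 to 43.7) lacked an alpha chain. Without the largest chain it was 3 of 16 p53 KO cells (18.8%, 4.05 to 45.6), so the p53 KO value rested on that chain. TRBV5 cells lacked one in 2 of 33 cases in p53 KO (6.06%, 0.743 to 20.2), and in WT in 1 of 14 (7.14%, 0.181 to 33.9). Among cells with neither gene it was 73 of 272 (26.8%, 21.7 to 32.5) for p53 KO and 44 of 292 for WT (15.1%, 11.2 to 19.7). The TRBV5 value of p53 KO was below that of these other cells, and the intervals were narrowly apart. TRBV5 was chosen through a clone counted over cells with both chains, which bears on this share, so nothing is read from the gap. The intervals overlapped without the largest TRBV5 chain, at 2 of 22 cells (9.09%, 1.12 to 29.2). Without cells of 2 beta or 3 alpha contigs the TRBV5 value was 2 of 30 (6.67%, 0.818 to 22.1). The other cells were not counted under that filter, so no overlap is read from it. With a minimum of 3 UMIs per contig the intervals overlapped, at 6 of 25 TRBV5 cells (24.0%, 9.36 to 45.1) and 116 of 234 other cells (49.6%, 43.0 to 56.2). Median UMIs per beta contig in p53 KO were 5 for TRBV5, 8 for TRBV19 and 5 for the other V genes. In WT they were 2.5 for TRBV5, 4 for TRBV19 and 4 for the others. Whether UMI counts bear on these shares was not tested.

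**Figure D3:**
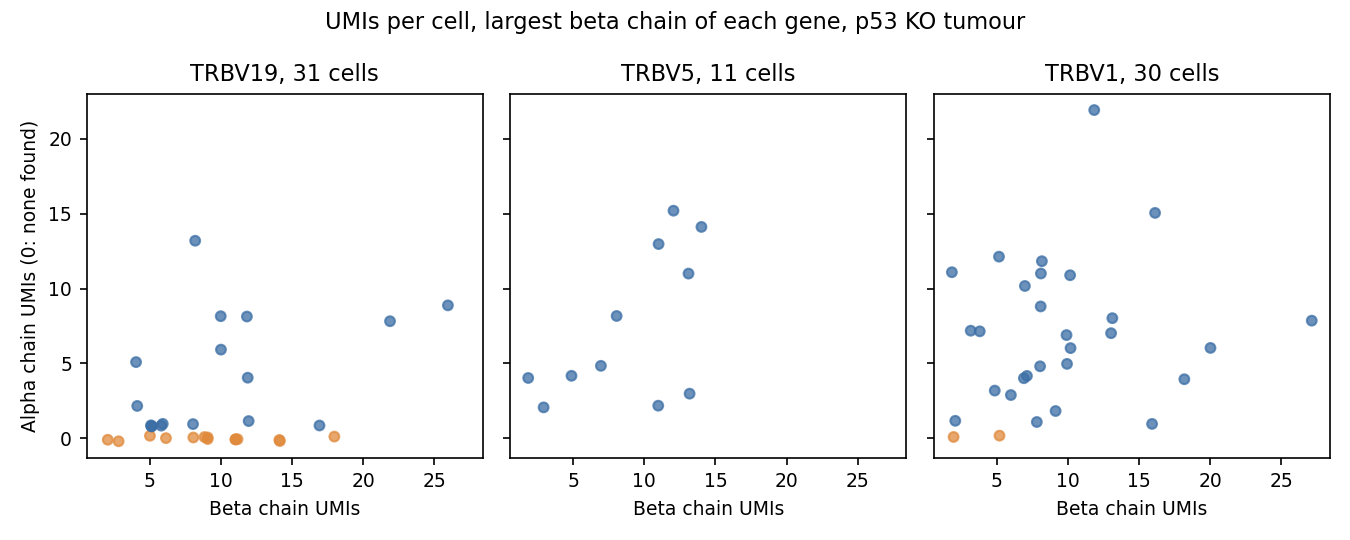
UMIs of the alpha chain (y axis, 0 where none was found, in orange) against UMIs of the beta chain (x axis) in each p53 KO cell with the largest TRBV19, TRBV5 or TRBV1 beta chain; points are spread slightly so that equal values can be seen. In the TRBV19 clone 14 of 31 cells lie at 0 and another 8 at 1 alpha UMI, while no TRBV5 cell lies at 0 or 1.

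The largest TRBV5 chain of p53 KO had TRAV7-4 joined to TRAJ33 in all 11 cells, in 2 forms. The first form was in 10 cells, at 2 to 15 UMIs, and in 1 further cell without a beta chain. The other was in 1 cell, at 13 UMIs, and this cell has an identifier of its own. The CDR3 alpha sequences are shown because they differ at 1 base, in capitals.
TRAV7-4, 10 cells: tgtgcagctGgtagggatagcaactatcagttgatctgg
TRAV7-4, 1 cell: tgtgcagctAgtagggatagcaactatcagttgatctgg
Counted from the first base of the CDR3, the second differs from the first by G10A, which gives G4S in residues.

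The other expanded TRBV5 chains of p53 KO are shown because they make up the clone sizes that WT lacked, with capitals as before.
TRBV5 with TRBJ1-1, 5 cells: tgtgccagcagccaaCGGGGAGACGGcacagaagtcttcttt
TRBV5 with TRBJ2-3, 3 cells: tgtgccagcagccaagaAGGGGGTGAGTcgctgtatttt
TRBV5 with TRBJ1-6, 3 cells: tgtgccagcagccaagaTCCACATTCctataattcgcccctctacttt
TRBV5 with TRBJ2-5, 3 cells: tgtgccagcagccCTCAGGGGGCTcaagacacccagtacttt
Each was found with 1 main alpha chain. The TRBJ1-1 chain had TRAV3D-3 with TRAJ7 in all 5 cells, at 2 to 14 beta UMIs. The TRBJ2-3 chain had TRAV14-1 with TRAJ7 in all 3 cells. The TRBJ1-6 chain had TRAV7-6 with TRAJ49 in all 3 cells, which fall under 2 identifiers, and 2 of these cells held a second alpha chain. The TRBJ2-5 chain had TRAV5-4 with TRAJ37 in 2 cells and no alpha chain in 1. In 1 of its cells a second alpha chain was found, TRAV14-1 with TRAJ31, at 4 UMIs. That alpha chain was also the only one, again at 4 UMIs, in the cell of another TRBV5 chain, joined to TRBJ2-1. The beta chains of the last 3 clones stood at 2 to 6 UMIs, lower than the top of the range in the largest TRBV5 clone, 14.

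In p53 KO the remaining TRBV19 chains of more than 1 cell were also spread over several identifiers, and are shown for that reason.
TRBV19 with TRBJ1-6, 3 cells: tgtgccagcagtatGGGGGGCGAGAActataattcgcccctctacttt
TRBV19 with TRBJ1-4, 2 cells: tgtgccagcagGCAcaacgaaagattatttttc
The TRBJ1-6 chain fell under 3 identifiers. In 2 of its cells it came with 1 alpha CDR3 nucleotide sequence joined to TRAJ37, named TRAV16 in 1 cell and TRAV16N in the other, and the remaining cell had no alpha chain. One of those 2 cells also held a TRBV13-3 chain, at 27 UMIs against 3 for the TRBV19 chain, and a second alpha chain, TRAV16N with TRAJ27. The TRBJ1-4 chain fell under 2 identifiers. Both of its cells had the same alpha chains, TRAV7-1 with TRAJ12 and TRAV1 with TRAJ26, and 1 also held a TRBV17 chain.

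The WT library had 4 TRBV19 chains in 2 or more cells. The largest, of 5 cells, had TRAV9-4 with TRAJ58 in 3 cells and no alpha chain in 2. The TRBJ2-4 chain was in 2 cells, both with TRAV9-1 and TRAJ47. The TRBJ1-3 chain was in 2 cells, and both also held 1 TRBV17 chain. Their alpha chain, TRAV7D-2 with TRAJ18, was found in 5 cells, which held no other beta chain than these. The fourth, joined to TRBJ2-7, belongs to a group of near-identical chains described further on.
TRBV19 with TRBJ2-4, WT, 2 cells: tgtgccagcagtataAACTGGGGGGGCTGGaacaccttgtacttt
TRBV19 with TRBJ1-3, WT, 2 cells: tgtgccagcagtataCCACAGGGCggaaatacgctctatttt
TRBV19 with TRBJ2-7, WT, 2 cells: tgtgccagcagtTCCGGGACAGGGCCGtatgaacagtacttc
They are shown for comparison with the p53 KO chains of that size.

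Cells with 2 beta chains were found among both genes. In p53 KO they were 6 of 47 TRBV19 cells (12.8%, 4.83 to 25.7) and 3 of 33 TRBV5 cells (9.09%, 1.92 to 24.3), and 14 of 272 cells with neither gene (5.15%, 2.84 to 8.49). In WT they were 2 of 20 TRBV19 cells, 0 of 14 TRBV5 cells and 12 of 292 with neither (4.11%, 2.14 to 7.07). A cell with 2 beta chains has 2 chances to hold one of these genes and then leaves the cells with neither, so these shares are not compared. None of the 31 cells of the largest TRBV19 chain held a second beta chain. All 6 p53 KO cells were thus among the other 16 TRBV19 cells. Of these 6, 1 cell held both genes, TRBV19 with TRBJ2-7 at 5 UMIs and the TRBV5 chain with TRBJ1-6 at 4 UMIs. The alpha chain of that TRBV5 clone was in this cell too.

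The J partners of TRBV19 differed between the libraries, a pattern singled out after its values were seen. In p53 KO, 6 of 14 TRBV19 chains were joined to TRBJ1-4 (42.9%, 17.7 to 71.1), against 0 of 13 in WT, where the interval ends at 24.7%. Among chains of all other V genes TRBJ1-4 was in 8 of 205 in p53 KO (3.90%, 1.70 to 7.54), apart from TRBV19, and 13 of the 213 in WT (6.1%, 3.29 to 10.2). The TRBJ1 cluster as a whole was in 9 of 14 TRBV19 chains of p53 KO (64.3%, 35.1 to 87.2), while in WT it was in 1 of 13 (7.69%, 0.195 to 36.0). Other V genes had it in 31.2% (24.9 to 38.0) and 31.0% (24.8 to 37.7). Between the libraries the TRBV19 intervals overlap, slightly so for the cluster. The largest chain is joined to TRBJ2-1 and is not part of these counts of TRBJ1. The TRBJ1-4 chains of TRBV19 are shown because they make up that count, with the chain of 2 cells given above as the sixth.
TRBJ1-4, chain a: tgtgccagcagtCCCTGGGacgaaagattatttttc
TRBJ1-4, chain b: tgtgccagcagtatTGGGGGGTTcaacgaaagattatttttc
TRBJ1-4, chain c: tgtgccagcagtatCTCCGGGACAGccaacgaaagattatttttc
TRBJ1-4, chain d: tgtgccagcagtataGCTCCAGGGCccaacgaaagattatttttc
TRBJ1-4, chain e: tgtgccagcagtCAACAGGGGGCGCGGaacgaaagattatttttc
Their joints all differ, with 3 to 15 bases in capitals over the 6 chains. The 6 chains were found in 7 cells, at 2 to 8 UMIs. Chains a and c and the chain of 2 cells occurred in a cell with a second beta chain, and chains b and d in a cell with no alpha chain. Without cells of 2 beta chains the count was 4 of 10 chains (40.0%), and with 3 or more UMIs 4 of 12 (33.3%).

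In WT, TRBV19 was mostly joined to TRBJ2-7, in 7 of 13 chains (53.8%, 25.1 to 80.8), apart from the 34 of 213 chains of other V genes (16.0%, 11.3 to 21.6). In p53 KO it was 2 of 14 (14.3%, 1.78 to 42.8), against 42 of 205 (20.5%, 15.2 to 26.7). TRBV5 had the reverse order for this J gene, with 1 of 14 chains in WT (7.14%, 0.181 to 33.9) and 5 of 13 in p53 KO (38.5%, 13.9 to 68.4). TRBV5 was joined to TRBJ2-4 in 4 WT chains and no p53 KO chain. All of these pairs of intervals between libraries overlap. TRBJ2-1, the J gene of both large p53 KO chains, was in 2 of 13 TRBV5 and 2 of 14 TRBV19 chains of p53 KO, and in 1 and 0 chains of WT. By cells the large clone brought it to 32 of 47 TRBV19 cells in p53 KO (68.1%).

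**Figure D4:**
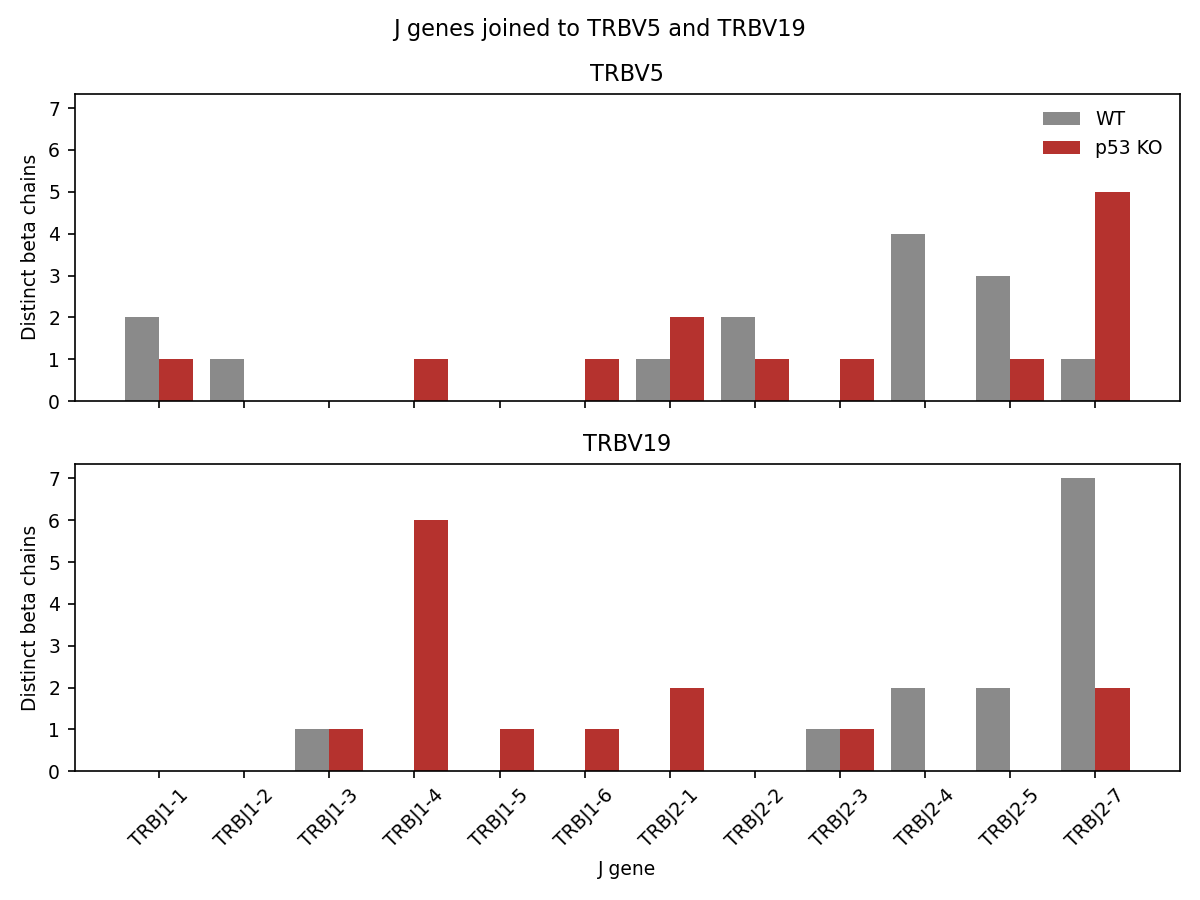
Number of distinct beta chains (y axis) of TRBV5 (top) and TRBV19 (bottom) joined to each J gene (x axis) in the WT (grey) and p53 KO library (red). TRBV19 was joined to TRBJ1-4 in 6 p53 KO chains and no WT chain, and to TRBJ2-7 in 7 WT and 2 p53 KO chains.

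D genes were rarely named. A D gene was called in 97 of 340 WT and 87 of 373 p53 KO beta contigs of any V gene. Over distinct chains, TRBV5 had TRBD1 in 2 and TRBD2 in 1 of 14 WT chains, and TRBD2 in 2 of 13 p53 KO chains. TRBV19 had TRBD1 in 2 and TRBD2 in 1 of 13 WT chains, and TRBD1 in 1 of 14 p53 KO chains. These numbers are too few to compare D use.

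The CDR3 had a like length for both genes. The mean over distinct TRBV5 chains was 14.3 residues in WT (SD 1.59 over 14 chains) and 14 in p53 KO (SD 1.00 over 13). Over TRBV19 chains it was 14.2 in WT (SD 1.14 over 13) and 14.3 in p53 KO (SD 1.38 over 14). Chains of other V genes had means of 13.85 (SD 1.55) and 13.99 (SD 1.42). A CDR3 of 14 or more residues was found in 11 of 14 TRBV5 chains from WT (78.6%) and 10 of 13 from p53 KO (76.9%). For TRBV19 it was found in 11 of 13 (84.6%) and 12 of 14 (85.7%), and for other V genes in 60.6% and 65.9%. The intervals of both genes overlap those of the other V genes in each library. The shortest joint of either gene was in a WT chain of TRBV5 with TRBJ1-1, which had 0 bases between the shared V and J ends.

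Residue 5 of the CDR3, which lies at the V end, is encoded in part by the V gene. Among TRBV5 chains it was glutamine in 11 of 14 (WT) and 9 of 13 (p53 KO), and among TRBV19 chains isoleucine in 6 of 13 (WT) and 6 of 14 (p53 KO). For TRBV19 that is a minority of chains in both libraries. The largest TRBV19 chain has isoleucine there, while the largest TRBV5 chain has histidine, as 2 of 13 chains did. In the middle of the CDR3, without the first 4 and last 4 residues, tryptophan was found in 6 of 14 TRBV5 chains of WT (42.9%, 17.7 to 71.1) and 4 of 13 of p53 KO (30.8%, 9.09 to 61.4). Other V genes had it in 15.5% and 18.0%. An acidic residue was in 12 of 14 TRBV5 chains of WT (85.7%, 57.2 to 98.2) and 11 of 13 of p53 KO (84.6%), against 58.2% and 57.1% for other V genes. In TRBV19 an acidic residue was in 4 of 13 WT chains (30.8%, 9.09 to 61.4) and 10 of 14 p53 KO chains (71.4%, 41.9 to 91.6). The shared J ends of TRBJ1-4, TRBJ2-3 and TRBJ2-5 encode an acidic residue in this middle part. The 6 TRBJ1-4 chains and 1 TRBJ2-3 chain of TRBV19 in p53 KO are thus counted through their J gene. So are 2 TRBJ2-5 chains and 1 TRBJ2-3 chain of TRBV19 in WT. The shared V end of TRBV5 stops at ga, and every codon that starts so encodes an acidic residue. The intervals overlap in each of these comparisons, and neither large p53 KO chain has tryptophan.

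Of 54 chains of both genes, 9 had another beta chain within 1 amino acid change in either library, and none of these 9 was found in more than 2 cells. Chains of the other V genes were not counted in this way, so the 9 are not read as a trait of these genes. No CDR3 of either gene was found in both libraries. This overlap was not counted for the other V genes, so nothing is read from it. The libraries shared 0 cell barcodes. The largest group was of 4 TRBV19 chains joined to TRBJ2-7, shown because they come from both tumours.
Chain 1, WT, 1 cell: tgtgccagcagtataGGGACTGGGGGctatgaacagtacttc
Chain 2, WT, 1 cell: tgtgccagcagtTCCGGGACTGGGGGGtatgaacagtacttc
Chain 3, WT, 2 cells: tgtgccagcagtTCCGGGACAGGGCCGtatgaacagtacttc
Chain 4, p53 KO, 1 cell: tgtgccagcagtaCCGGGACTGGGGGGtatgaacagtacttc
From chain 2 to chain 4 the residue change is S5T, with 1 base changed. From chain 2 to chain 3 it is G9P, with 3 bases changed, and from chain 1 to chain 2 it is I5S, with 4 bases. A p53 KO chain of another V gene, TRBV29, in 3 cells, was also within 1 change of chains 1, 2 and 4. Chain 1 came with no alpha chain, and chain 4 was in the cell that held both TRBV19 and TRBV5.

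Chains 2 and 3 had the same CDR3 alpha in residues, joined to TRAJ37. The alpha chain was named TRAV9-2 with chain 2 and TRAV9D-2 with chain 3. The nucleotide sequences are shown because they differ at 4 bases, in capitals.
TRAV9-2, with chain 2: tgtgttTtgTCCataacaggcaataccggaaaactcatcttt
TRAV9D-2, with chain 3: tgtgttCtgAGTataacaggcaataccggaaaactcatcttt
These WT clonotypes thus have the same CDR3 alpha residues and beta chains 1 residue apart, seen in 3 cells with both chains. The TRAV9-2 chain was also found in 1 cell without a beta chain.

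TRBV5 had a smaller group of this kind in p53 KO, of 3 chains joined to TRBJ2-7 and found in 1 cell each.
TRBV5, chain f: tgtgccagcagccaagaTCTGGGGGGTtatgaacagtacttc
TRBV5, chain g: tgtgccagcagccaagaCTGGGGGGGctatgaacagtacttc
TRBV5, chain h: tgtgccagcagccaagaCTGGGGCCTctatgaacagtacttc
From chain f to chain g the residue change is L7W, and from chain g to chain h it is G9L. Each pair lies 3 base edits apart, where an edit is the change, insertion or deletion of a base. The cells of chains g and h had different alpha chains, and that of chain f had none.

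Alpha partners by family were spread widely, and the families named here were picked after their counts were seen. Over distinct beta chains with an alpha chain, TRBV5 was paired with the TRAV14 family in 4 of 13 chains in WT (30.8%, 9.09 to 61.4) and 3 of 12 in p53 KO (25.0%, 5.49 to 57.2). Other V genes had it in 14.7% and 12.6%. TRBV19 was paired with the TRAV9 family in 4 of 11 WT chains (36.4%, 10.9 to 69.2), including 3 of its 4 chains of 2 or more cells. In p53 KO it was 0 of 12, where the interval ends at 26.5%. Other V genes had the TRAV9 family in 12.6% and 10.6%. The TRAV7 family, which both large p53 KO clones carry, was in 2 of 12 TRBV5 chains and 3 of 12 TRBV19 chains of p53 KO, and in 13.9% of chains of other V genes. These differences lie within the counting intervals.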

How the data were processed

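The authors deposited, for each library, filtered receptor contigs with raw counts of reads and UMIs per contig, per the file headers. Cell Ranger 6.1.1 and mm10 were named, per the submitters' processing notes, without the version of the receptor reference. The WT library holds 733 contigs with 14957044 reads and 4280 UMIs, and the p53 KO library 709 contigs with 19853340 reads and 4138 UMIs. The median is 4 and 5 UMIs per beta contig. A count of 0 allows a share of up to 0.920% (WT) and 0.855% (p53 KO) of cells that have a beta chain, from 3 counts of the total.

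Beta contigs named TRBV5 or TRBV19 were taken. Clones were counted by deposited identifier and by V gene, J gene and CDR3 nucleotides, and a cell with 2 beta chains counted for each. The chains of 2 or more cells, those within 1 residue of another and, for each gene, the 3 V genes nearest in shares were named. Shared V and J ends are the longest runs held by at least 30% of distinct chains of a gene. The members, lists and rules were chosen with earlier results of these data known. Alternatives were a minimum of 3 UMIs, leaving out cells with 2 or more beta or 3 or more alpha contigs, which can be doublets, paired cells, the other clone definition, the top contig per cell, cells as units, and leaving out the largest clone. No doublet caller was run. The counting was tested on simulated data. The scripts ran on Python 3.11.15 with scipy 1.17.1 for intervals, pandas 2.3.3, numpy 2.4.6, and matplotlib 3.10.9. The 2 gene expression libraries were not used here.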

Additional observations from a re-analysis of the deposited data

How the results depend on the processing

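Of 164 alternative values, 151 stayed within the exact interval of the main value and 13 did not, with the cause not tested unless stated. Fewer contigs remain with 3 or more UMIs, and the share of cells without an alpha chain was then 42.9% (WT) and 24.0% (p53 KO) for TRBV5 and 56.2% and 59.1% for TRBV19. The p53 KO share of cells was 6.47% for TRBV5 and 5.0% for TRBV19 without the largest beta chain, an alternative added after seeing the data, and 9.25% for TRBV19 without the largest clonotype. The TRBV19 cells without an alpha chain were then 18.8% and 54.8%. The largest TRBV19 clone of p53 KO held 34.0% of the gene's cells by identifier, 53.3% of paired cells and 66.0% by beta chain. By cells, which weights the large clone, TRBJ2-1 was in 68.1% and TRBJ1-4 in 14.9% of TRBV19 in p53 KO. The order of the libraries turned in 14 of 81 alternatives: 10 on CDR3 length, 2 on TRBV5 cells without an alpha chain and 2 on the TRBV5 share of clonotypes. No paired analysis was possible because each genotype has 1 library. In the main counts, shares of a gene's cells rest on 14 to 47 cells, and shares of its distinct chains on 11 to 14 chains. Alternatives can rest on fewer: with 3 or more UMIs, the TRBV5 value of WT without an alpha chain was 3 of 7 cells.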
